A study of Mus musculus with 4 samples.

Results

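The proteasome of splenic dendritic cells (DC) was examined on 4 arrays, 1 for each combination of genotype and overnight culture: MARCO-/- DC with LPS, WT DC with LPS, MARCO-/- DC with PBS and WT DC with PBS. MARCO-/- mice lack the scavenger receptor MARCO and were 8 to 12 weeks old. WT mice were age- and sex-matched, and the labels give the genetic background of all 4 samples as C56BL/6. LPS, a bacterial ligand of the toll-like receptor TLR4, was used at 100 ng/ml. DC were taken from the spleen by positive selection for CD11c from pools of 5 to 6 mice, so each array holds the RNA of pooled animals. A member was any gene whose annotated symbol starts with Psma, Psmb, Psmc, Psmd, Psme, Psmf or Psmg followed by a digit. Only probe sets with a single symbol were used. This gave 47 of the 17097 genes measured and 74 of their 28898 probe sets. Where a gene had several probe sets, the brightest by mean log2 value stood for it. All levels are intensities on a linear scale, ratios are log2 values formed without an offset, and a gene counted as changed when its intensities differed at least 2-fold. The median of all intensities was 4.87, and values near it are background. There are no replicates, so no difference was tested.

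The proteasome degrades proteins that carry ubiquitin. Its barrel-shaped core particle has outer rings of alpha subunits, encoded by Psma genes, and inner rings of beta subunits, encoded by Psmb genes, of which Psmb5, Psmb6 and Psmb7 cut the substrate. The regulatory particle recognises, unfolds and feeds in substrates by means of the Psmc ATPases and the Psmd subunits. In cells exposed to interferon, and in many immune cells at rest, Psmb8, Psmb9 and Psmb10 take the places of Psmb5, Psmb6 and Psmb7 to form the immunoproteasome, and Psme1 and Psme2 form the PA28 activator. These particles produce many of the peptides that MHC class I molecules present. By these roles the 47 genes fall into 5 of the inducible set (Psmb8, Psmb9, Psmb10, Psme1 and Psme2), 30 constitutive subunits and 12 others, which are activators, chaperones, an inhibitor, subunits of single tissues and 2 genes that are no subunits. Psmc6, Psme4 and Psmd10 had no probe set of that symbol alone and were not analysed here.

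Promoters of 39 of the 47 genes were matched in RefSeq (GRCm38.p6). Those of Psmb8, of Psmb5, whose product it replaces, and of Psme1 and Psme2 are printed because these genes carry the comparison of inducible with constitutive subunits. Each run begins 250 bases before the gene start and ends 25 bases after the start. Capitals mark matches to letters named for a factor or element. In Psmb8 they are TTCNNNGAA (GAS, a STAT element) and in Psmb5 TGACNNNGC (core of the antioxidant element). In Psme1 they are the interferon element ISRE on the reverse strand, searched as GAAA, any 2 bases and GAAA, and in Psme2 the NF-kB letters on either strand, searched as GGG, any 5 bases and CC.
Psmb8, chr17:34197945-34198219, plus strand: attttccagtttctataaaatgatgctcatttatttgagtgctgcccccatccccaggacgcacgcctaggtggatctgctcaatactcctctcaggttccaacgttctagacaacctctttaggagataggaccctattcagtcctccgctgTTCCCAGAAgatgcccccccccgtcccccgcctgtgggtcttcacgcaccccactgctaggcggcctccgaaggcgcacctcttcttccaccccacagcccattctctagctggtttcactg
Psmb5, chr14:54617971-54618245, minus strand: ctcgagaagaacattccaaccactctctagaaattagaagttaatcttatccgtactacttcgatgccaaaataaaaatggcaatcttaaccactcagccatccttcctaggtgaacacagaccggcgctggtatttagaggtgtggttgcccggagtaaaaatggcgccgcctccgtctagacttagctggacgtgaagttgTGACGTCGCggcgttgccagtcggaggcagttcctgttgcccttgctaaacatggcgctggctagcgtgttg
Psme1, chr14:55578244-55578518, plus strand: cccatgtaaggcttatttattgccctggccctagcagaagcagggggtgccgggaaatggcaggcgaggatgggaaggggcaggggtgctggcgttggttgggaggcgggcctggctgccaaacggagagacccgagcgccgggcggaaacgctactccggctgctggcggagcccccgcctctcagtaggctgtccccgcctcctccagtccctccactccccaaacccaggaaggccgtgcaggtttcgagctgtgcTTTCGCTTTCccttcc
Psme2, chr14:55591077-55591351, minus strand: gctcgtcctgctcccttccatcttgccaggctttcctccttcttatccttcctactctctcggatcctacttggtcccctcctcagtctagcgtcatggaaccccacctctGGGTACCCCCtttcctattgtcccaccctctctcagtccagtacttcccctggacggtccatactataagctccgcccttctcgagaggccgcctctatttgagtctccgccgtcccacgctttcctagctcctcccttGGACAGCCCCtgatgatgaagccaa
The Psmb8 match began 97 bases before the start and the Psmb5 match 47 bases before it, whereas the Psme1 match began at base 10 of the gene. Psme1 also held the NF-kB letters, left in lower case, beginning 126, 84 and 61 bases before the start. Psme2 has 2 starts in the table. For the one printed, a match on both strands began 139 bases before the start and another at the first base of the gene. Over windows of 300 bases searched on both strands, the ISRE letters were found in 12.8% of the members (Psmb3, Psmd4, Psmd9, Psme1 and Psmg4) and in 3.99% of all 27025 genes of the promoter table. The GAS letters were found in 7.69% of the members (Psmb8, Psmd2 and Psmg1) and in 9.55% of all those genes. The NF-kB letters occurred in 56.4% of the members against 53.5% of all those genes, and the antioxidant core in 10.3% (Psmb5, Psmb6, Psmd12 and Psmd9) against 13.99%. A match is a match of letters and not a measured binding site.

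Most members had higher intensities with LPS than with PBS, the constitutive subunits as well as the inducible set. In MARCO-/- DC, 11 of the 47 members were at least 2-fold higher with LPS than with PBS, where 6.32% of all genes were, and in WT DC 14 of 47 were, where 6.2% of all genes were. None was at least 2-fold lower in either genotype, against 5.98% of all genes in MARCO-/- DC and 8.31% in WT DC. In all, 18 members rose in at least 1 genotype, where 8.63% of all genes did. Many members are bright, and among bright genes, those whose highest log2 intensity is at least 8, the shares at 2-fold lay closer together. Of the 28 bright members 6 (21.4%) rose in MARCO-/- DC, against 17% of all 1592 bright genes, and 5 (17.9%) rose in WT DC, against 15.8%. At 1.5-fold, 32 members were higher in MARCO-/- DC, against 13.2% of all genes, and 32 were higher in WT DC, against 14.2%. Among the bright members 20 of 28 were higher at that fold in MARCO-/- DC, against 28.3% of all bright genes, and 21 of 28 in WT DC, against 26.1%. At that fold 28 members were higher in both genotypes, as were 7.97% of all genes. The median log2 ratio of LPS over PBS was 0.77 for the members and 0.00 for all genes in MARCO-/- DC, and 0.80 for the members and 0.05 for all genes in WT DC. Over the bright genes alone it was 0.79 for the members and 0.11 for all in MARCO-/- DC, and 0.78 for the members and 0.04 for all in WT DC. In 42 of 47 members both LPS arrays lay above both PBS arrays, as in 26.9% of all genes. This held for 28 of 28 bright members and 44.3% of all bright genes. The 42 members held all 30 constitutive subunits and all 5 genes of the inducible set. The exceptions were Psma8, Psmb11, Psmd5, Psmf1 and Psmg2. In such bulk RNA, a change in the cells present and a change in RNA per cell cannot be told apart.

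**Figure D1:**
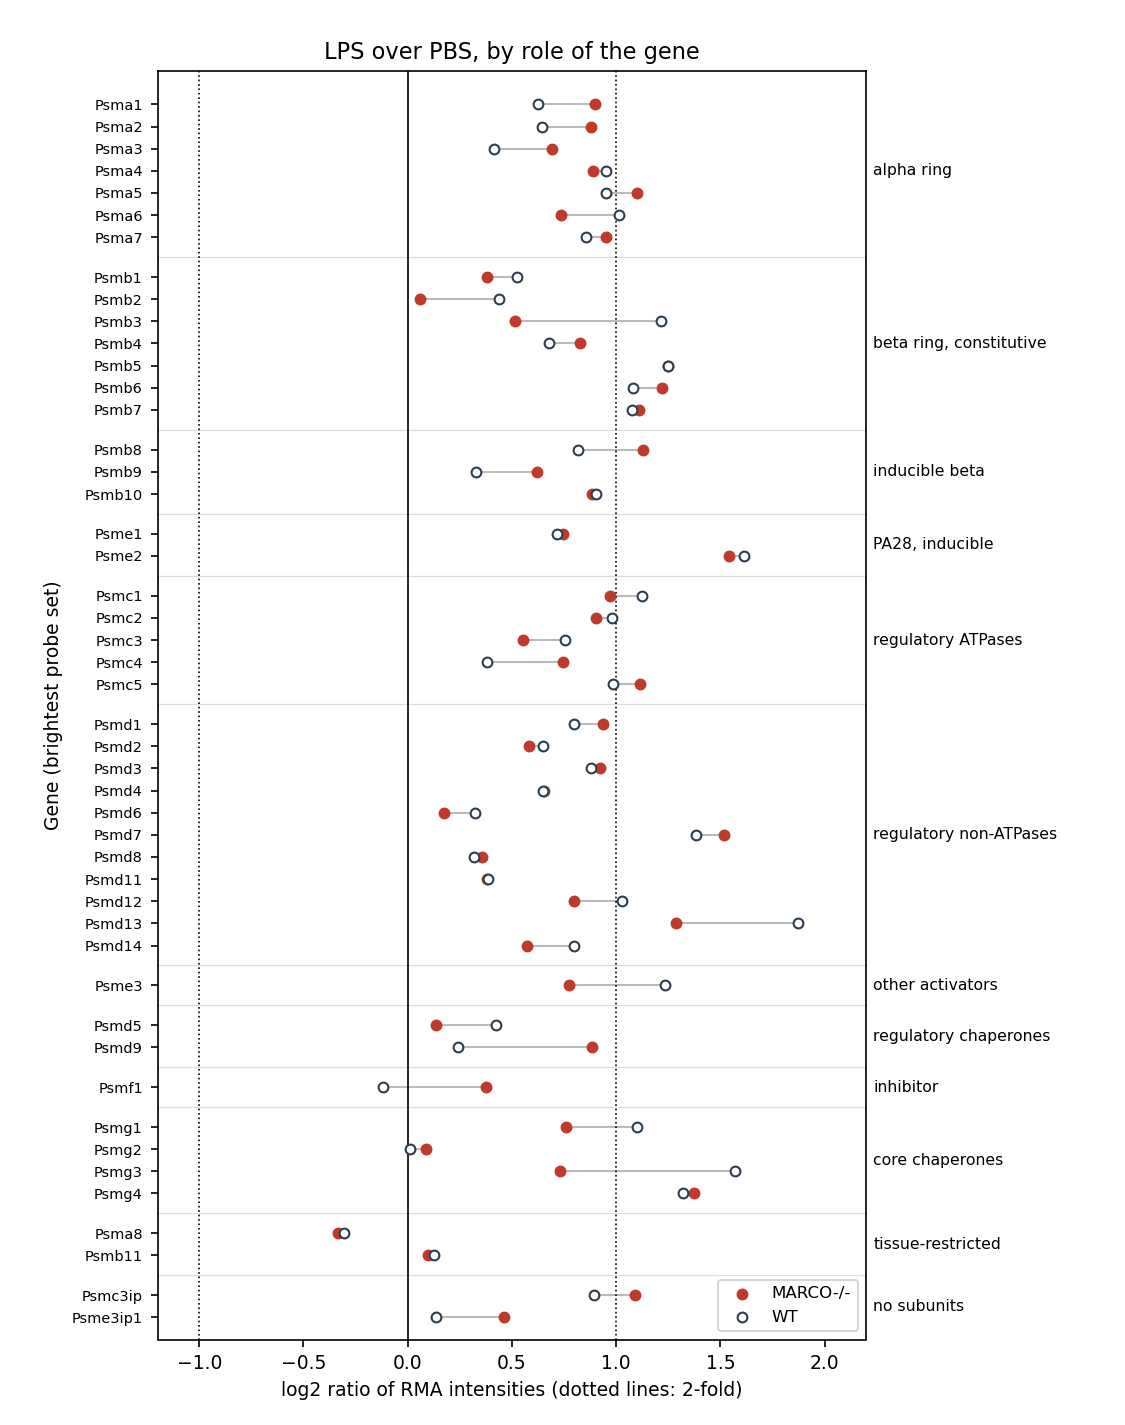
Log2 ratio of LPS over PBS for every member, grouped by role, in MARCO-/- DC and in WT DC, with 1 value per gene and genotype (filled points MARCO-/-, open points WT) and dotted lines at 2-fold. Nearly all members lie above 0, and the inducible set (medians 0.88 in MARCO-/- DC and 0.82 in WT DC) overlaps the constitutive subunits (medians 0.85 in MARCO-/- DC and 0.83 in WT DC).

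The inducible set and the constitutive subunits shifted by similar amounts. The median log2 ratio of LPS over PBS in MARCO-/- DC was 0.88 for the 5 inducible genes and 0.85 for the 30 constitutive subunits. In WT DC the medians were 0.82 for the inducible genes and 0.83 for the constitutive subunits. All 5 inducible genes are bright. The 23 bright constitutive subunits had lower medians than these 5, 0.75 in MARCO-/- DC and 0.76 in WT DC. Psmb8 and Psme2 rose in MARCO-/- DC and Psme2 alone in WT DC, which makes 2 of 5 and 1 of 5, while 7 of 30 constitutive subunits rose in MARCO-/- DC and 9 of 30 in WT DC.

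Psme2, the beta chain of PA28, had the highest ratio of the inducible set. Its intensity was 2677 with LPS and 921 with PBS in MARCO-/- DC (2.91-fold), and 2492 with LPS and 815 with PBS in WT DC (3.06-fold). In all, 3.03% of genes had a higher ratio in MARCO-/- DC and 2.54% in WT DC. Its partner Psme1, the alpha chain, moved less, with 1629 with LPS and 971 with PBS in MARCO-/- DC, and 1639 with LPS and 997 with PBS in WT DC (1.68-fold in MARCO-/- DC and 1.64-fold in WT DC). Psme1 and Psme2 are near neighbours on chromosome 14, separated by Emc9 in RefSeq. RefSeq also lists a close copy, Psme2b, and whether the Psme2 probe set separates both was not tested.

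Psmb8, the inducible subunit that replaces Psmb5, had 1813 with LPS and 829.5 with PBS in MARCO-/- DC, and 1414 with LPS and 804 with PBS in WT DC. It thus rose 2.19-fold in MARCO-/- DC and had a ratio of 1.76 in WT DC. Psmb9, which replaces Psmb6, had 913 with LPS and 594 with PBS in MARCO-/- DC, and 751 with LPS and 599 with PBS in WT DC. Both of its LPS values lay above both PBS values, and its folds of 1.54 in MARCO-/- DC and 1.25 in WT DC were the lowest of the set. A further probe set of Psmb9 gave larger ratios, with 319 with LPS and 184 with PBS in MARCO-/- DC, and 349 with LPS and 176 with PBS in WT DC (log2 ratios of 0.80 in MARCO-/- DC and 0.99 in WT DC). Psmb10, which replaces Psmb7, had 745 with LPS and 404 with PBS in MARCO-/- DC, and 644 with LPS and 345 with PBS in WT DC. Its log2 ratios were 0.88 in MARCO-/- DC and 0.90 in WT DC. Psmb8 and Psmb9 lie on chromosome 17 in the MHC region, in the order Psmb9, Tap1, Psmb8, Tap2, and Psmb10 lies on chromosome 8.

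**Figure D2:**
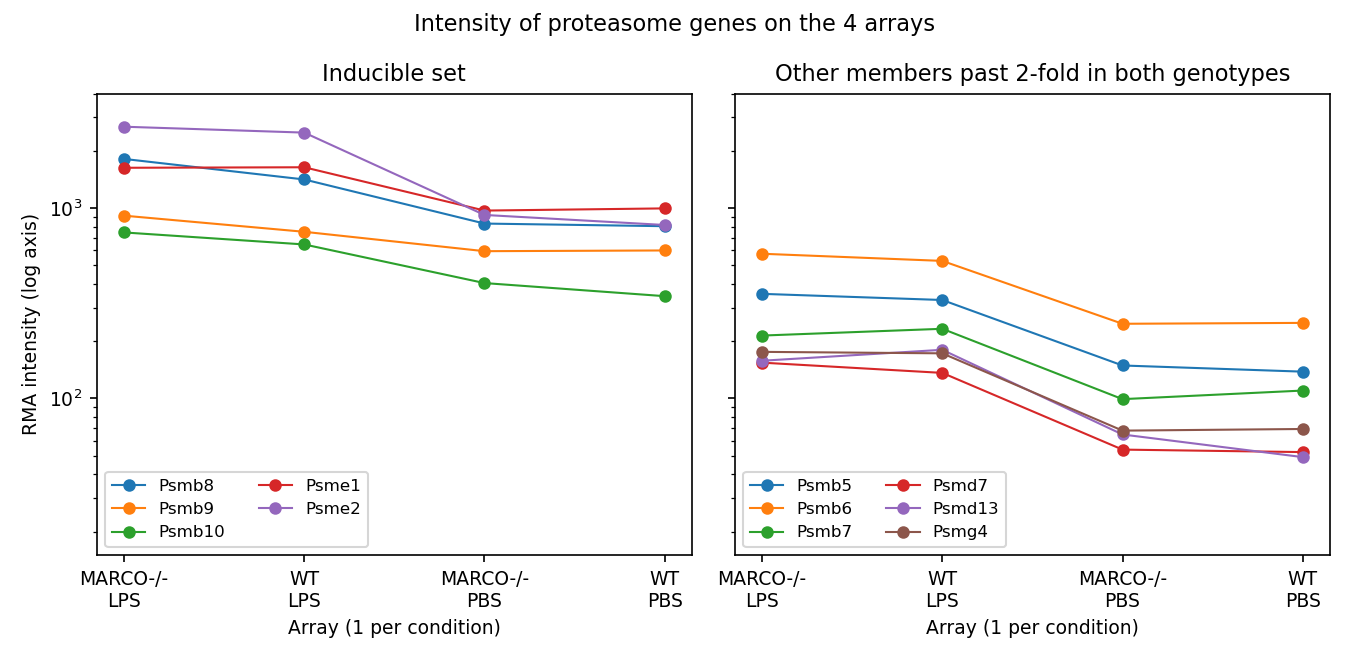
Intensities (log axis) of the inducible set (left) and of the other members past 2-fold with LPS in both genotypes (right) on the 4 arrays, in the order MARCO-/- LPS, WT LPS, MARCO-/- PBS, WT PBS, with 1 point per array and a line joining the points of a gene. Each of the 11 genes is higher on both LPS arrays than on both PBS arrays, and heights of different genes are not comparable because probe sets differ.

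The catalytic subunits of the constitutive core, which the inducible ones replace, rose at least 2-fold in both genotypes. Psmb5, the chymotrypsin-like subunit, had 355 with LPS and 149 with PBS in MARCO-/- DC, and 329 with LPS and 138 with PBS in WT DC, 2.38-fold in each genotype. Psmb6, the caspase-like subunit, had 576 with LPS and 247 with PBS in MARCO-/- DC, and 528 with LPS and 249.5 with PBS in WT DC (2.33-fold in MARCO-/- DC and 2.12-fold in WT DC). Psmb7, the trypsin-like subunit, had 214 with LPS and 99.2 with PBS in MARCO-/- DC, and 232 with LPS and 110.1 with PBS in WT DC (2.16-fold in MARCO-/- DC and 2.11-fold in WT DC). The inducible subunit therefore had a lower log2 ratio than its counterpart in every pair and genotype. Psmb8 minus Psmb5 was -0.12 in MARCO-/- DC and -0.43 in WT DC. For Psmb9 minus Psmb6 the difference was -0.60 in MARCO-/- DC and -0.76 in WT DC, and for Psmb10 minus Psmb7 it was -0.23 in MARCO-/- DC and -0.18 in WT DC. With the further probe set of Psmb9, the log2 ratios of 0.80 in MARCO-/- DC and 0.99 in WT DC also lay below those of Psmb6, 1.22 in MARCO-/- DC and 1.08 in WT DC. RefSeq lists the pseudogenes Psmb5-ps, Psmb6-ps and Psmb7-ps1, and whether the probe sets separate them from the genes was not tested.

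The structural beta subunits, which do not cut, had log2 ratios from 0.06 to 0.83 in MARCO-/- DC and from 0.44 to 1.22 in WT DC. Psmb3 had 724 with LPS and 507 with PBS in MARCO-/- DC, and 1046 with LPS and 450.0 with PBS in WT DC, so that it had a ratio of 1.43 in MARCO-/- DC and rose 2.32-fold in WT DC. Its further probe set did not show that gap: it had 397 with LPS and 216 with PBS in MARCO-/- DC, and 408 with LPS and 233 with PBS in WT DC (log2 ratios of 0.88 in MARCO-/- DC and 0.80 in WT DC). Psmb4 had 978 with LPS and 552 with PBS in MARCO-/- DC, and 952 with LPS and 595 with PBS in WT DC. The remaining members of this group had the lowest ratios of the ring. Psmb1 had 546 with LPS and 419 with PBS in MARCO-/- DC, and 642 with LPS and 446 with PBS in WT DC. Psmb2 had 363 with LPS and 349 with PBS in MARCO-/- DC, a log2 ratio of 0.06 whose sign changed with the scaling of the arrays, and 403 with LPS and 298 with PBS in WT DC.

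The 7 alpha ring genes moved as a narrow band, with log2 ratios from 0.69 to 1.10 in MARCO-/- DC and from 0.41 to 1.02 in WT DC. All 7 were higher on both LPS arrays than on both PBS arrays, and 1 rose 2-fold in each genotype. In MARCO-/- DC this was Psma5, which had 405 with LPS and 189 with PBS in MARCO-/- DC (2.14-fold), and 391 with LPS and 203 with PBS in WT DC (1.93-fold). In WT DC it was Psma6. It had 838 with LPS and 503 with PBS in MARCO-/- DC, and 994 with LPS and 492 with PBS in WT DC. The fold of 2.02 in WT DC was under 2 after median centring, quantile normalization and cyclic loess. The call at 2-fold thus separated genes whose ratios are close. Psma1 had 547 with LPS and 294 with PBS in MARCO-/- DC, and 485 with LPS and 315 with PBS in WT DC. Psma2 had 1314 with LPS and 714 with PBS in MARCO-/- DC, and 1346 with LPS and 862 with PBS in WT DC. Psma4 and Psma7 came close to 2-fold in both genotypes. Psma4 had 694 with LPS and 375 with PBS in MARCO-/- DC, and 775 with LPS and 401 with PBS in WT DC. Psma7 had 890.1 with LPS and 460.0 with PBS in MARCO-/- DC, and 944 with LPS and 521 with PBS in WT DC. Psma3 had the lowest ratio of the ring, with 1369 with LPS and 846 with PBS in MARCO-/- DC, and 1270.3 with LPS and 953 with PBS in WT DC.

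The ATPases of the regulatory particle, which unfold the substrate, had medians of 0.90 in MARCO-/- DC and 0.98 in WT DC over 5 genes. Psmc5 rose 2.17-fold in MARCO-/- DC, with 296 with LPS and 137 with PBS, and had 279 with LPS and 141 with PBS in WT DC (1.98-fold). Psmc1 had 219 with LPS and 112 with PBS in MARCO-/- DC (1.96-fold), and 249.7 with LPS and 115 with PBS in WT DC, where it rose 2.18-fold. Both genes therefore lie close to the threshold in the genotype in which they missed it. Psmc2 had 464 with LPS and 248 with PBS in MARCO-/- DC, and 413 with LPS and 209 with PBS in WT DC. Psmc3 had 296 with LPS and 202 with PBS in MARCO-/- DC, and 342 with LPS and 202 with PBS in WT DC. Psmc4 had 266 with LPS and 158 with PBS in MARCO-/- DC, and 241 with LPS and 185 with PBS in WT DC (log2 ratios of 0.75 in MARCO-/- DC and 0.38 in WT DC). Its further probe set gave 0.72 in MARCO-/- DC and 0.68 in WT DC.

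The log2 ratios of the 11 non-ATPase subunits of the regulatory particle spread from 0.17 to 1.52 in MARCO-/- DC and from 0.32 to 1.87 in WT DC. Psmd7, a scaffold partner of the deubiquitinase Psmd14, rose in both genotypes, with 154 with LPS and 53.9 with PBS in MARCO-/- DC, and 136 with LPS and 52.3 with PBS in WT DC (2.86-fold in MARCO-/- DC and 2.61-fold in WT DC). Psmd13, a subunit of the lid, also rose in both, with 158 with LPS and 64.7 with PBS in MARCO-/- DC, and 180.2 with LPS and 49.2 with PBS in WT DC (2.44-fold in MARCO-/- DC and 3.66-fold in WT DC). A pair of further probe sets carries the symbols of both Psmd13 and Sirt3 and was left out by the rule. Psmd12, another lid subunit, had 184 with LPS and 106 with PBS in MARCO-/- DC, and 219 with LPS and 108 with PBS in WT DC, where it rose 2.04-fold, a call lost after another scaling. Psmd1, a scaffold of the base, had 580.1 with LPS and 303 with PBS in MARCO-/- DC, and 523 with LPS and 301 with PBS in WT DC (1.92-fold in MARCO-/- DC and 1.74-fold in WT DC). Psmd14 had 687 with LPS and 462 with PBS in MARCO-/- DC, and 813 with LPS and 467 with PBS in WT DC. Psmd2, Psmd3 and Psmd4, the last a ubiquitin receptor, had log2 ratios between 0.58 and 0.92 in MARCO-/- DC and between 0.65 and 0.88 in WT DC. The lowest ratios belonged to Psmd6, Psmd8 and Psmd11. Psmd6 had 345 with LPS and 306 with PBS in MARCO-/- DC, and 374 with LPS and 299.7 with PBS in WT DC. Psmd8 had 416 with LPS and 325 with PBS in MARCO-/- DC, and 412 with LPS and 329.8 with PBS in WT DC. Psmd11 had 200.04 with LPS and 154 with PBS in MARCO-/- DC, and 206 with LPS and 158 with PBS in WT DC. Its next probe set, however, passed 2-fold in both genotypes, with 195 with LPS and 77.5 with PBS in MARCO-/- DC, and 185 with LPS and 79.0 with PBS in WT DC (log2 ratios of 1.33 in MARCO-/- DC and 1.23 in WT DC).

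The assembly chaperones of the core, Psmg1 to Psmg4, which help the alpha ring to form, included members with high and low ratios. Psmg4 rose in both genotypes, with 176 with LPS and 67.8 with PBS in MARCO-/- DC, and 173 with LPS and 69.1 with PBS in WT DC (2.59-fold in MARCO-/- DC and 2.50-fold in WT DC). Psmg3 passed 2-fold in WT DC alone, with 62.7 with LPS and 37.7 with PBS in MARCO-/- DC, and 83.3 with LPS and 28.1 with PBS in WT DC (1.66-fold in MARCO-/- DC and 2.97-fold in WT DC). Psmg1 likewise passed 2-fold in WT DC alone, with 103 with LPS and 60.8 with PBS in MARCO-/- DC, and 147 with LPS and 68.8 with PBS in WT DC. Psmg2, which pairs with Psmg1, barely differed between conditions, with 56.2 with LPS and 53.0 with PBS in MARCO-/- DC, and 48.7 with LPS and 48.3 with PBS in WT DC, and the sign of its ratio changed with the scaling in both genotypes. Psmd5 and Psmd9 are chaperones of the base of the regulatory particle. Psmd5 had 103 with LPS and 93.9 with PBS in MARCO-/- DC, and 92.4 with LPS and 68.9 with PBS in WT DC. Psmd9 was dim, with 35.5 with LPS and 19.3 with PBS in MARCO-/- DC, and 31.3 with LPS and 26.5 with PBS in WT DC.

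Of the regulators outside the inducible set, Psme3, which encodes the nuclear PA28 gamma activator, passed 2-fold in WT DC alone. It had 92.8 with LPS and 54.3 with PBS in MARCO-/- DC, and 128 with LPS and 54.3 with PBS in WT DC (1.71-fold in MARCO-/- DC and 2.36-fold in WT DC). A further, dim probe set of Psme3 had the larger ratio in MARCO-/- DC instead, with log2 1.05 in MARCO-/- DC and 0.42 in WT DC. Psmf1, an inhibitor of the core in vitro, had 53.6 with LPS and 41.3 with PBS in MARCO-/- DC, and 39.1 with LPS and 42.4 with PBS in WT DC, a ratio whose sign in WT DC changed with the scaling. Psma8, an alpha subunit of the testis, and Psmb11, a beta subunit of the thymic cortex, stayed at background. Psma8 lay between 3.40 and 4.72 and Psmb11 between 2.07 and 2.42 on the 4 arrays. The rule for symbols also took Psmc3ip and Psme3ip1, which are no subunits. Psmc3ip, a factor of meiotic recombination, had 28.7 with LPS and 13.5 with PBS in MARCO-/- DC, and 25.1 with LPS and 13.5 with PBS in WT DC (2.13-fold in MARCO-/- DC and 1.86-fold in WT DC). Psme3ip1, which encodes a protein that binds PA28 gamma, had 165 with LPS and 119.7 with PBS in MARCO-/- DC, and 135 with LPS and 123 with PBS in WT DC.

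**Figure D3:**
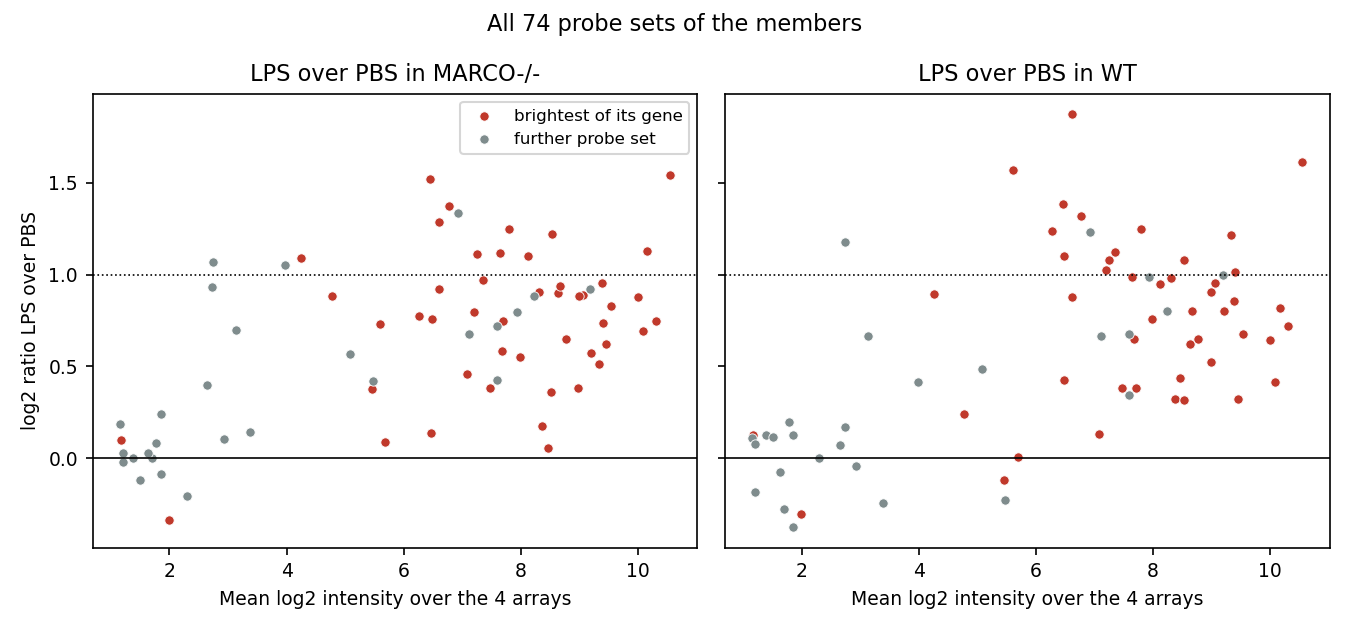
Log2 ratio of LPS over PBS (y axis) against mean log2 intensity over the 4 arrays (x axis) for all 74 probe sets, in MARCO-/- DC (left) and WT DC (right), with the brightest probe set of each gene in red, further ones in grey and a dotted line at 2-fold. Most dim probe sets lie near 0, and the brighter ones, further probe sets included, lie mostly between 0 and 1.5.

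Of the 47 members 17 had more than 1 probe set, with 27 further probe sets among them. The highest intensity of 17 of the 27 was under 16. The other 10 belong to Psma7, Psmb3, Psmb9, Psmc4, Psmd4, Psmd6, Psmd11, Psme3, Psmf1 and Psmg2. That of Psmd4 gave log2 ratios of 0.68 in MARCO-/- DC and 0.66 in WT DC, near the 0.65 of the representative one in both genotypes. For Psmf1, the further probe set had log2 ratios of 0.57 in MARCO-/- DC and 0.48 in WT DC, and for Psmg2 it had 0.42 in MARCO-/- DC and -0.23 in WT DC.

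The log2 ratios of LPS over PBS lay close together in MARCO-/- DC and in WT DC. There were 7 members that rose in both, namely Psmb5, Psmb6, Psmb7, Psmd7, Psmd13, Psme2 and Psmg4, where 3.89% of all genes did. These make up 63.6% of the members called in MARCO-/- DC and 50% of those called in WT DC. Of all genes called, 61.5% of those in MARCO-/- DC and 62.7% of those in WT DC were shared, so that the overlap of the members was near or below that of all genes. The calls of Psmd7 and Psmg4 rest on the brightest probe set. With the mean over all probe sets of a gene, of which the further ones are near background, the log2 ratio of Psmd7 was 0.70 in MARCO-/- DC and 0.72 in WT DC, and that of Psmg4 was 0.70 in both, under 2-fold. Psma5, Psmb8, Psmc3ip and Psmc5 passed 2-fold in MARCO-/- DC alone, and Psma6, Psmb3, Psmc1, Psmd12, Psme3, Psmg1 and Psmg3 in WT DC alone. Whether these 11 genes differ between genotypes was not tested. The log2 ratio in MARCO-/- DC minus that in WT DC had a median of 0.00 over the members, and 24 of 47 differences were above 0. They ran down to -0.84 for Psmg3 and up to 0.64 for Psmd9. The difference was within 0.5 in size in 43 of 47 members (91.5%) and in 74.1% of all genes. Psmg3, Psmb3, Psmd13 and Psmd9 were the exceptions, of which Psmd9 was dim and Psmb3 had a further probe set without the gap.

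**Figure D4:**
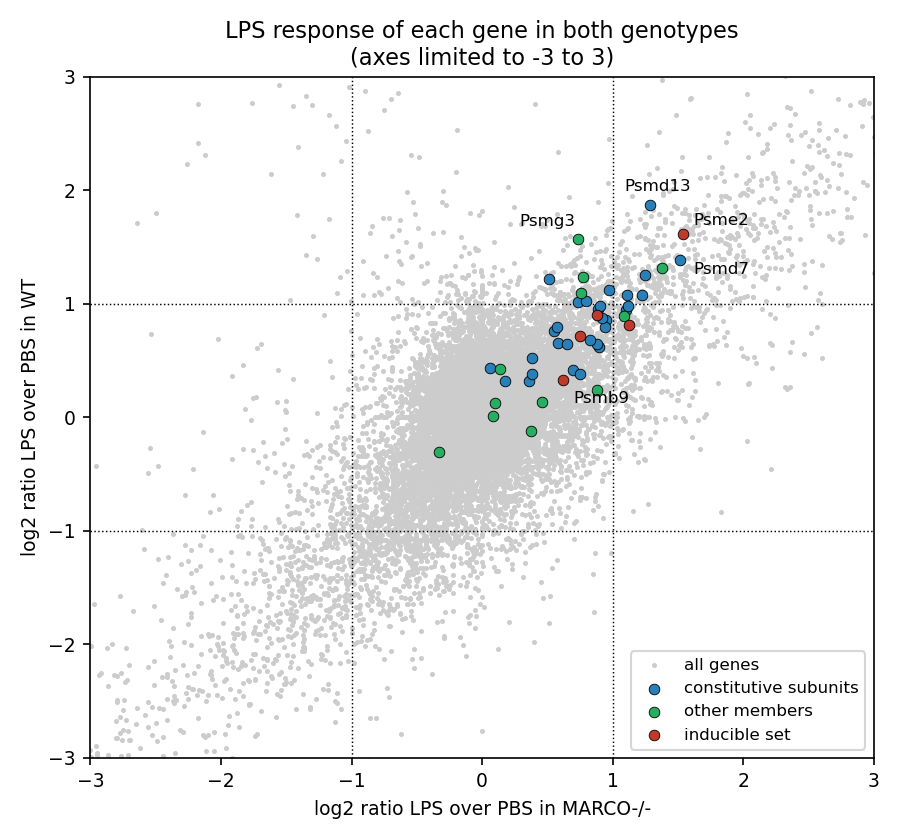
Log2 ratio of LPS over PBS in MARCO-/- DC (x axis) and in WT DC (y axis), with 1 point per gene, all genes in grey and members coloured by class, and dotted lines at 2-fold. The members form a compact group around medians of 0.77 in MARCO-/- DC and 0.80 in WT DC, and Psmg3 and Psmd13 lie toward the WT side.

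Compared directly, no member differed 2-fold between genotypes. With LPS, 0 of 47 members were at least 2-fold higher in MARCO-/- DC than in WT DC and 0 were lower, where 2.09% of all genes were higher and 1.31% lower. With PBS the counts were again 0 and 0, where 0.76% of all genes were higher and 0.287% lower. Of the 1592 bright genes 25 were higher and 10 lower with LPS, and 17 were higher and 7 lower with PBS. These shares are so small that 0 of 47 members is near them. At 1.5-fold there was still no member in either direction. With LPS, 8.76% of all genes were higher and 4.92% lower at that fold, and with PBS 2.62% were higher and 1.5% lower. The median log2 ratio of MARCO-/- over WT was 0.04 with LPS and -0.02 with PBS over the members. These comparisons use the same 4 arrays as the LPS comparisons. With LPS the ratios ranged from -0.53 for Psmb3 to 0.45 for Psmf1, and with PBS from -0.46 for Psmd9 to 0.45 for Psmd5.

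Within these limits, the inducible beta genes had somewhat higher intensities in MARCO-/- DC than in WT DC with LPS. The log2 ratio was 0.36 for Psmb8, 0.28 for Psmb9 and 0.21 for Psmb10, and after 3 other scalings it ranged from 0.30 to 0.43, from 0.24 to 0.36 and from 0.17 to 0.29. The further probe set of Psmb9 went the other way, at -0.13. Of the probe sets under 16 in intensity, that of Psmb8 had -0.24 and that of Psmb9 0.17. Psme2 had 0.10 and Psme1 -0.01, the sign of which changed with the scaling. Of all genes, 18.1% had a higher ratio with LPS than Psmb8, 22.9% than Psmb9 and 27.9% than Psmb10. Over all bright genes the median with LPS was 0.08 and the upper quartile 0.30. With PBS the ratio was 0.05 for Psmb8, -0.01 for Psmb9 and 0.23 for Psmb10, so that of Psmb10 was no larger with LPS. The median was 0.21 for the inducible set and -0.06 for the constitutive subunits with LPS, and with PBS it was 0.05 for the inducible set and -0.03 for the constitutive subunits. Both medians of the constitutive subunits changed sign under another scaling. With the mean over all probe sets of a gene, the medians with LPS were 0.10 for the inducible set and -0.02 for the constitutive subunits. With the mean over probe sets whose highest intensity is at least 16, the inducible set had 0.10. In that setting the constitutive subunits had -0.07 and all genes 0.17. All of these ratios are under 1.5-fold, the spread between arrays of the same condition is unknown, and the difference between the sets was not tested. With LPS 10 members, and with PBS 14 members, had a ratio of MARCO-/- over WT so near 0 that its sign changed between scalings.

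**Figure D5:**
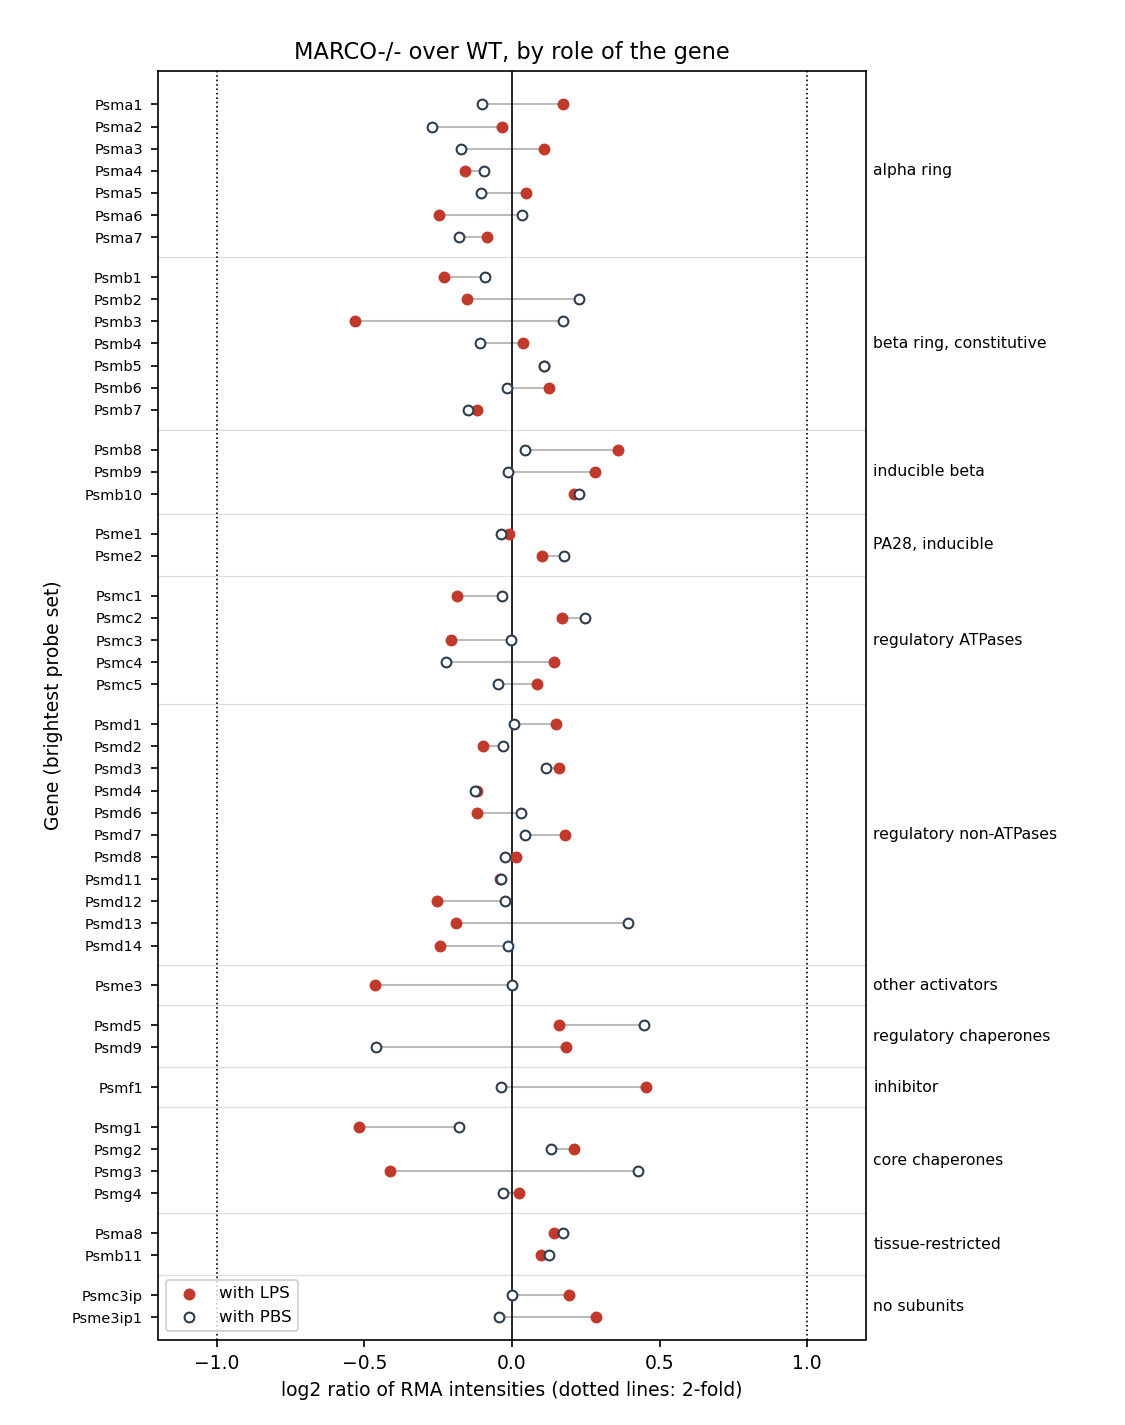
Log2 ratio of MARCO-/- over WT for every member, grouped by role, with LPS and with PBS, with 1 value per gene and culture (filled points LPS, open points PBS). All values lie between -0.53 and 0.45, inside the 2-fold lines at -1 and 1.

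Beside the members, 1 listed partner of the proteasome and 1 gene of peptide loading rose 2-fold. Of all genes, 6.32% rose in MARCO-/- DC and 6.2% in WT DC. Of 26 symbols listed as partners of the proteasome, which include older names of the same genes, 13 were measured. Of these 13, 1 rose at least 2-fold with LPS in each genotype and none fell. This was Nfe2l1, a transcription factor known in other cells to drive proteasome genes, with 191 with LPS and 72.3 with PBS in MARCO-/- DC, and 191 with LPS and 57.9 with PBS in WT DC (log2 ratios of 1.40 in MARCO-/- DC and 1.72 in WT DC). The median log2 ratio of the 13 was 0.16 in MARCO-/- DC and 0.11 in WT DC, and that of all genes was 0.00 in MARCO-/- DC and 0.05 in WT DC. Pomp, the maturation factor of the core, had 954 with LPS and 828 with PBS in MARCO-/- DC, and 933 with LPS and 783 with PBS in WT DC. Of 12 genes of peptide loading on MHC class I 9 were measured, and Tapbpl, a peptide editor, alone rose at least 2-fold, in both genotypes, with 161 with LPS and 61.6 with PBS in MARCO-/- DC, and 147 with LPS and 56.6 with PBS in WT DC. None fell, and the median was 0.23 in MARCO-/- DC and 0.15 in WT DC, above the medians of all genes just given. Tapbp, which encodes tapasin, had log2 ratios of 0.87 in MARCO-/- DC and 0.69 in WT DC, and Nlrc5, an activator of MHC class I genes, 0.71 in MARCO-/- DC and 0.54 in WT DC. Tap1 and Tap2, the neighbours of Psmb8 and Psmb9, had no probe set of that symbol alone and were not analysed here.

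Genes of interferon signalling moved in both directions. Of 15 listed, 14 were measured. In MARCO-/- DC 3 rose (Irf1, Irf7 and Stat2) and 2 fell (Ifng and Ifngr1), and in WT DC 4 rose (Irf1, Irf7, Irf9 and Stat2) and 3 fell (Ifng, Ifngr1 and Ifnar2). Of all genes 6.32% rose and 5.98% fell in MARCO-/- DC, and 6.2% rose and 8.31% fell in WT DC. The median log2 ratio of the 14 was -0.10 in MARCO-/- DC and -0.04 in WT DC. Irf1, a transcription factor that binds ISRE-like letters, had 621 with LPS and 242 with PBS in MARCO-/- DC, and 504 with LPS and 215 with PBS in WT DC. Irf7, which drives type I interferon genes, had the largest ratio, with 313 with LPS and 39.2 with PBS in MARCO-/- DC, and 196 with LPS and 31.3 with PBS in WT DC. Ifngr1, a chain of the interferon gamma receptor, was lower, with 98.5 with LPS and 500.5 with PBS in MARCO-/- DC, and 74.8 with LPS and 421 with PBS in WT DC. Ifng itself was dim, between 9.42 and 43.7 on the 4 arrays. Ifnb1 stayed at background, between 3.22 and 4.97.

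Markers of DC and of other cells moved with the conditions too. The summed intensity of 9 DC markers was 6824 in MARCO-/- DC and 7456 in WT DC with LPS, against 16860.1 in MARCO-/- DC and 16133 in WT DC with PBS. Among them Itgax, which encodes CD11c, was at 16.4 in MARCO-/- DC and 12.9 in WT DC with LPS, against 621 in MARCO-/- DC and 548 in WT DC with PBS. The sum is mostly that of the MHC class II genes H2-Aa, H2-Ab1, H2-Eb1 and Cd74. In MARCO-/- DC 5 of the 9 were at least 2-fold lower and 2 higher with LPS, and in WT DC 4 were lower and 1 higher. Cd80 and Cd86, which encode ligands that costimulate T cells, went the other way. The log2 ratio of Cd80 was 1.73 in MARCO-/- DC and 1.71 in WT DC, that of Cd86 0.62 in MARCO-/- DC and 0.94 in WT DC, and that of Zbtb46, a transcription factor of DC, 1.38 in MARCO-/- DC and 0.67 in WT DC. Over 8 macrophage markers the sums were 582 in MARCO-/- DC and 389 in WT DC with LPS, and 2664 in MARCO-/- DC and 1626 in WT DC with PBS. Spic alone, at 434 in MARCO-/- DC and 247 in WT DC with LPS, was above its PBS values of 234 in MARCO-/- DC and 189 in WT DC. The other 7 were each at least 2-fold lower with LPS in both genotypes, and summed to 148 in MARCO-/- DC and 143 in WT DC with LPS, and to 2430 in MARCO-/- DC and 1436 in WT DC with PBS. Over 4 neutrophil markers (Camp under 16 throughout) the sums were 16.8 in MARCO-/- DC and 36.7 in WT DC with LPS, and 282 in MARCO-/- DC and 361 in WT DC with PBS. NK cell markers (5 genes) summed to 113 in MARCO-/- DC and 315 in WT DC with LPS, and to 433 in MARCO-/- DC and 715 in WT DC with PBS. With PBS the sum is mostly Gzma, at 277 in MARCO-/- DC and 597 in WT DC. With LPS, 4 of the 5 were at least 2-fold lower in MARCO-/- DC and 3 in WT DC, but Gzmb had log2 ratios of 0.36 and 1.02. Ncr1 was higher in MARCO-/- DC than in WT DC, at log2 1.45 with LPS and 1.52 with PBS. B cell markers (4 genes, Pax5 under 16 throughout) lay between 1100 and 1926 and T cell markers (4 genes, Cd3e and Cd5 under 16) between 108 and 136. Endothelial markers (4 genes, Cdh5 under 16) lay between 55.5 and 101. Erythroid markers (4 genes, Klf1 and Epb42 under 16) summed to 6829 in MARCO-/- DC and 3989 in WT DC with LPS. With PBS they summed to 6329 in MARCO-/- DC and 4398 in WT DC. Hba-a1 alone lay between 3971 and 6792. The 9 stromal markers (Col1a2, Lum and Pdgfrb under 16 throughout) summed to 44.9 in MARCO-/- DC and 1688 in WT DC with LPS, and to 534 in MARCO-/- DC and 45.4 in WT DC with PBS. The 5 skeletal muscle markers summed to 22.9 in MARCO-/- DC and 420 in WT DC with LPS, and to 160 in MARCO-/- DC and 23.7 in WT DC with PBS. Stromal and muscle sums thus went in opposite directions with LPS in the 2 genotypes. The part of these cells in the proteasome values was not tested. Marco, the deleted gene, had 4.25 in MARCO-/- DC and 3.15 in WT DC with LPS, and 3.95 in MARCO-/- DC and 8.05 in WT DC with PBS, all close to background. The place of its probe set within the gene, inside or outside the deleted stretch, was not analysed here.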

How the data were processed

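RNA of cultured splenic DC was measured on Affymetrix arrays, 1 per condition, in 4 samples. The methods name a GeneChip Mouse Genome array. The deposited values are intensities on a linear scale, which the authors background-corrected, normalized and summarized per probe set with RMAexpress (version not given in the sources used here). Which of the 3 pools per genotype gave the RNA was not stated. Such normalization sets the arrays to a common distribution, so a shift of most genes would not be seen. The number of arrays limits the precision.

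Of 45141 probe sets, 104 controls were left out. Of the 45037 others, 28898 had a single gene symbol in the annotation of the platform, 551 had several and 15588 were not listed. The brightest probe set by mean log2 value stood for its gene, and a 2-fold difference, the cut of the methods, made a call. Medians and counts of the members and of the pathway lists stand beside those of all genes. The plan foresaw 11 alternatives for scaling, probe sets, filters, an added constant of 16 and thresholds, and 2 were added after the data were seen. All members were named, and values on the 4 arrays are given for the inducible and catalytic subunits, regulators, chaperones, members past 2-fold and the 3 highest and 3 lowest of each role. The members, lists and tests were chosen with earlier results of these data known. Promoter letters were searched in 300 bases around RefSeq starts. The steps were tested on simulated data. Scaling by quantiles and by cyclic loess was done with limma 3.58.1 in R 4.3.3. All else was done in Python 3.11.15, with pandas 2.3.3, numpy 2.4.6 and, for plots, matplotlib 3.10.9.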

Additional observations from a re-analysis of the deposited data

Results flagged for a closer look

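In 4 members the ratio of MARCO-/- over WT had opposite signs with LPS and with PBS, and the 2 values lay at least 0.5 apart on the log2 scale. The difference was not tested, since there is 1 array per condition. Psmb3, a structural beta subunit, had a log2 ratio of -0.53 with LPS and 0.17 with PBS, and its further probe set had -0.04 and -0.12. Psmd13, a lid subunit, had -0.19 with LPS and 0.39 with PBS. Psmg3, an assembly chaperone, had -0.41 with LPS and 0.43 with PBS. Psmd9, a chaperone of the regulatory particle, had 0.18 with LPS and -0.46 with PBS, at intensities of 35.5 or less.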

How the results depend on the processing

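With LPS, the 11 members called in MARCO-/- DC became 7 of 38 without probe sets whose names end in a_at, s_at or x_at (6% of all genes). They became 6 of 28 among genes whose highest log2 value is at least 8 (17% of all such genes). At 1.5-fold they became 32 of 47 (13.2%) and at 3-fold 0 (2.87%). The 14 called in WT DC became 5 of 28 among genes whose highest log2 value is at least 8 (15.8% of all such genes), 32 of 47 at 1.5-fold (14.2%) and 2 at 3-fold (2.65%). At that brightness the shares of the members, 21.4% in MARCO-/- DC and 17.9% in WT DC, are near those of all genes. Those filters leave fewer members and those thresholds differ by construction. All 11 calls in MARCO-/- DC held after median centring, quantile normalization and cyclic loess, and 12 of 14 in WT DC did, with Psma6 and Psmd12 lost. With the mean over all probe sets, Psmd7 and Psmg4 lost their calls in both genotypes and Psmc1 and Psme3 in WT DC. Adding 16 to each intensity ended the call of Psmb7 in both genotypes, of Psmc3ip in MARCO-/- DC and of Psma6, Psmd12 and Psmg1 in WT DC. Without the probe sets whose names end in a_at, s_at or x_at, Psmb3 lost its call in WT DC. Over the settings the median log2 ratio of LPS over PBS ran from 0.82 to 0.94 for the inducible set and from 0.71 to 0.91 for the constitutive subunits in MARCO-/- DC, and from 0.77 to 0.90 for the inducible set and from 0.67 to 0.84 for the constitutive subunits in WT DC. No member passed 2-fold between genotypes under any setting. Of the counts and medians recomputed, 125 stayed within a factor of 1.5 or a log2 distance of 0.2 and 7 did not. Part of the 125 could not move. A genotype count of 0 at 2-fold fixes 0 at 3-fold, and filters that kept all genes of a set left its median as it was. Of the log2 ratios recomputed for single genes, 205 stayed within 0.2 and 13 did not. The sign of 2 of the 80 medians changed. The median of the constitutive subunits for MARCO-/- over WT was -0.06 with LPS and 0.01 after median centring, and -0.03 with PBS and 0.01 after cyclic loess. No paired analysis was possible because each condition has 1 array. For dim members the ratio depends on the background correction, and adding 16 took the log2 ratio of Psmg3 in WT DC to 1.17.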
